A study of Mus musculus with 6 samples.

Results

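The 32 genes described here are interferon-stimulated effector genes, whose protein products carry out or limit the antiviral and antimicrobial state that interferons induce. They were taken as a named list of gene symbols, and every peak annotated to one of them within 50 kb of its transcription start site was collected. All 32 genes had such a peak, and they held 149 of the 156733 peaks of the study, whose annotation names 31309 genes. The assay was ATAC-seq on organoids: Tn5 transposase cuts and tags open chromatin, and organoids are self-renewing epithelial cultures grown from intestinal crypts. The aged group comprised 3 libraries from small-intestinal organoids of C57BL/6JRj mice aged 20 to 22 months, and the young group 3 libraries from mice of the same strain aged 2 to 3 months. All organoids had been in culture for 3 to 5 weeks without any treatment, so neither group received interferon or a microbe. In each group replicate 1 was harvested at passage 4, replicate 2 at passage 3 and replicate 3 at passage 2. The labels do not say that the 3 libraries of a group came from separate animals, so each p-value reflects only how much these libraries vary, which may be technical.

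Type I and type III interferons activate the kinases JAK1 and TYK2, and a complex of transcription factors that includes IRF9 then binds the interferon-stimulated response element (ISRE) in promoters. Interferon gamma acts through JAK1 and JAK2 and leads to binding at the gamma-activated site (GAS). In the intestinal epithelium these genes are known to restrict enteric viruses and intracellular microbes, and several of them feed back to limit the response.

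The promoters below show the DNA that the values refer to. Each is the stretch of 170 bases immediately before the start site, read 5′ to 3′ along the gene, from the RefSeq promoter table of GRCm38.p6, and capitals mark matches to the ISRE core, which was searched as GAAA, any 2 bases and GAAA again, on either strand. Isg15 is shown because it held the most matches and no peak, and Ifit1 and Ifit3 because both carry paired matches at weakly open promoters. Bst2 and Socs1 carry overlapping matches at well-opened promoters, and Irgm1, Igtp and Gbp7 stand for the interferon-induced GTPases. The stretches lie at chr4:156200819-156200988 (minus strand, Isg15), chr19:34640719-34640888 (plus, Ifit1), chr19:34583359-34583528 (plus, Ifit3), chr8:71537473-71537642 (minus, Bst2), chr16:10785537-10785706 (minus, Socs1), chr11:48871421-48871590 (minus, Irgm1), chr11:58199386-58199555 (plus, Igtp) and chr3:142530166-142530335 (plus, Gbp7).
Isg15: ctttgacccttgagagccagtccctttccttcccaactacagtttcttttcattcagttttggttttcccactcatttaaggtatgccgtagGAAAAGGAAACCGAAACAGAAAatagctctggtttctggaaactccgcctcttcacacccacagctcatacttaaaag
Ifit1: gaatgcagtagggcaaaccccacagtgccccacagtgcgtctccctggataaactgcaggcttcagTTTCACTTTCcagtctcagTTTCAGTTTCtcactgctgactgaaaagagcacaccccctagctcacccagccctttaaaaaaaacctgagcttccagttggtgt
Ifit3: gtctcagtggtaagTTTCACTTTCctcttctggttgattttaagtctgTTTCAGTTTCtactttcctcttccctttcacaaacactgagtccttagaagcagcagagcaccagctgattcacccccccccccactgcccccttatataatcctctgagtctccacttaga
Bst2: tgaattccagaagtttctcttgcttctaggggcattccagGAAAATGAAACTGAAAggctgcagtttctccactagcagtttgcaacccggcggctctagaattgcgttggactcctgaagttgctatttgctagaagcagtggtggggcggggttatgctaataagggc
Socs1: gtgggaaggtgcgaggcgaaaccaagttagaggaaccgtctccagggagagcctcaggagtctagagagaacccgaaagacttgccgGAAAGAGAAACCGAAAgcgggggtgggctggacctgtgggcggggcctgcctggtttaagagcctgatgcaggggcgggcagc
Irgm1: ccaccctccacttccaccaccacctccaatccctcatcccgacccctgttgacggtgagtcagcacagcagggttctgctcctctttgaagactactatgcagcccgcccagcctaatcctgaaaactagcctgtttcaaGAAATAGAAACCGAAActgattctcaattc
Igtp: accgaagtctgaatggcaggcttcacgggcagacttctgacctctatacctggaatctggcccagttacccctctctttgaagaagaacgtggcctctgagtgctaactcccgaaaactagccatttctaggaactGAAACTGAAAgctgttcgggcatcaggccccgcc
Gbp7: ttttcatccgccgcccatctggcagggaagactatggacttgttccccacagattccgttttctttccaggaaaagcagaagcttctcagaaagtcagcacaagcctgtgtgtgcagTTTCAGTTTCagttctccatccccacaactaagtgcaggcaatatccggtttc

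Promoter windows, from 250 bases before to 50 bases after a start site, were found in that table for 23 of the 32 genes by symbol. An ISRE core lay in a window of 15 of these 23 genes, against 3.99% of the 27025 genes in the table. At least 2 matches, overlapping ones included, were found in 9 of the 23 genes, against 0.266% of all genes. The GAS core, searched as TTC, any 3 bases and GAA, which reads the same on both strands, lay in a window of 9 of the 23 genes, against 9.55% of all genes, and 18 genes held one motif or the other. A letter match is a description of the DNA and not a measured binding site. A peak overlapped a window in 20 of the 23 genes, against 51.5% of all genes in the table. The 3 genes without one all held an ISRE core: Isg15, which encodes a ubiquitin-like protein, Gbp5, a guanylate-binding protein, and Ifitm3, which blocks virus entry from endosomes. In Isg15 the 3 overlapping matches began 78, 72 and 66 bases before the start site.

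**Figure D1:**
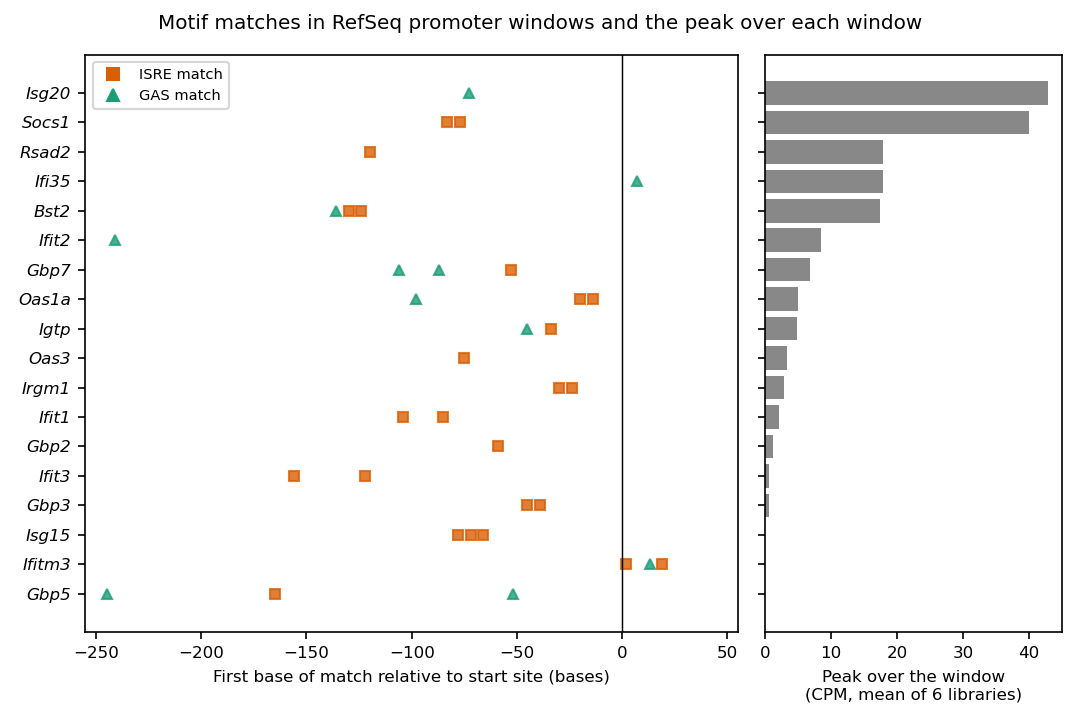
Left, position in bases of each ISRE (square) and GAS (triangle) match relative to the RefSeq start site, for the 18 genes with a match. Right, level of the peak over the same window, as the mean CPM of all 6 libraries. Isg15, Ifitm3 and Gbp5, at the bottom, have matches and no peak over the window, whereas Isg20 and Socs1 have the highest levels.

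Depth differed between the libraries. Counts in peaks totalled 21687816 to 26093521 in aged libraries and 7278161 to 25901670 in young ones, of which young replicate 1 was the shallowest. Levels are given as CPM, the usual count scaled to library size, with sizes adjusted by TMM factors. The epithelial label was checked on markers: 10 of 11 epithelial markers had a promoter peak, with summed levels of 415 to 441 CPM in aged and 385 to 430 CPM in young libraries. Only 3 of 13 immune markers had one, with Ptprc and Cd3e among those without, and their sums were 9.31 to 10.2 CPM in aged and 9.42 to 12.0 CPM in young libraries. Of the 8 stromal and endothelial markers 4 had a promoter peak, with sums of 30.8 to 35.6 CPM in aged and 29.0 to 35.9 CPM in young libraries. None of these marker promoters was called. These are bulk samples, in which fewer open cells and less open chromatin per cell cannot be told apart.

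Of the 149 peaks, 26 lay within 1 kb of the annotated start site (promoter peaks, at 23 genes) and 123 lay beyond it (distal peaks, at 27 genes). No promoter peak carried the name of Isg15, Oas2, Oas3, Oasl1, Gbp5, Iigp1, Parp9, Ifi27 or Ifitm3, and no distal peak that of Oas1a, Gbp7, Igtp, Xaf1 or Dtx3l. Distal peaks were classed as intronic (51), intergenic (50), exonic (10), at a transcription termination site (7) or at a promoter (5). Of the intronic and exonic ones 38 lay in the gene whose name they carried, and the rest lay in another gene. Just inside the 50 kb limit was a peak 49.8 kb from the start of Ifit1, and just outside it another at 50.7 kb. At the 1 kb limit a peak of Mx2 at 0.777 kb counted as promoter and a peak of Socs1 at 1.02 kb as distal. The name is that of the nearest annotated start, which may be an alternative one, so the classes follow the annotation and not function. Thus 4 distal peaks, of Mx2, Rsad2, Ifi27 and Gbp5, were classed as a promoter of the same gene. Parp9, a macrodomain protein of the ADP-ribosyltransferase family, begins within the promoter peak named for its divergent neighbour Dtx3l, the ubiquitin ligase that partners it. Several members lie in clusters of close paralogues (the IFIT, OAS and GBP genes), and neither the labels nor the file headers say how reads that fit several places were counted.

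No member promoter was called as higher or lower in aged organoids, and most estimates lay near 0. For each gene the counts of its promoter peaks were summed and aged was compared with young by edgeR's quasi-likelihood test over all 14355 genes tested, with calls at a p under 0.05 after Benjamini-Hochberg adjustment. Of the 23 members tested 0 were called, against 1.69% of all genes tested (0.627% for higher genes alone). At an unadjusted p under 0.05 there was 1 member, Mx2, against 11.8% of all genes, and DESeq2 called 0 members. The smallest adjusted p of edgeR's test among the members was 0.394. The median log2 fold change, aged over young, was 0.03, the same as the 0.03 over all genes, with 13 members above 0 and 10 below it. The groups did not overlap for 3 of the 23 members, against 16.3% of all genes. These were Usp18 and Dtx3l, with aged above young, and Mx2, with aged below young.

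The error on these values was moderate. The 95% interval of a member's log2 fold change reached 0.36 to either side at the median, with a range of 0.14 to 0.95, against a median of 0.23 over all genes. In 20 of 23 members the interval lay within 1 log2 unit of 0, that is, within a 2-fold change, and 17 of 23 estimates lay within 0.2 of 0. The intervals that reached past 1 log2 unit belonged to Ifit3, Ifi44 and Mx2, which had 2 to 25 counts per library.

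**Figure D2:**
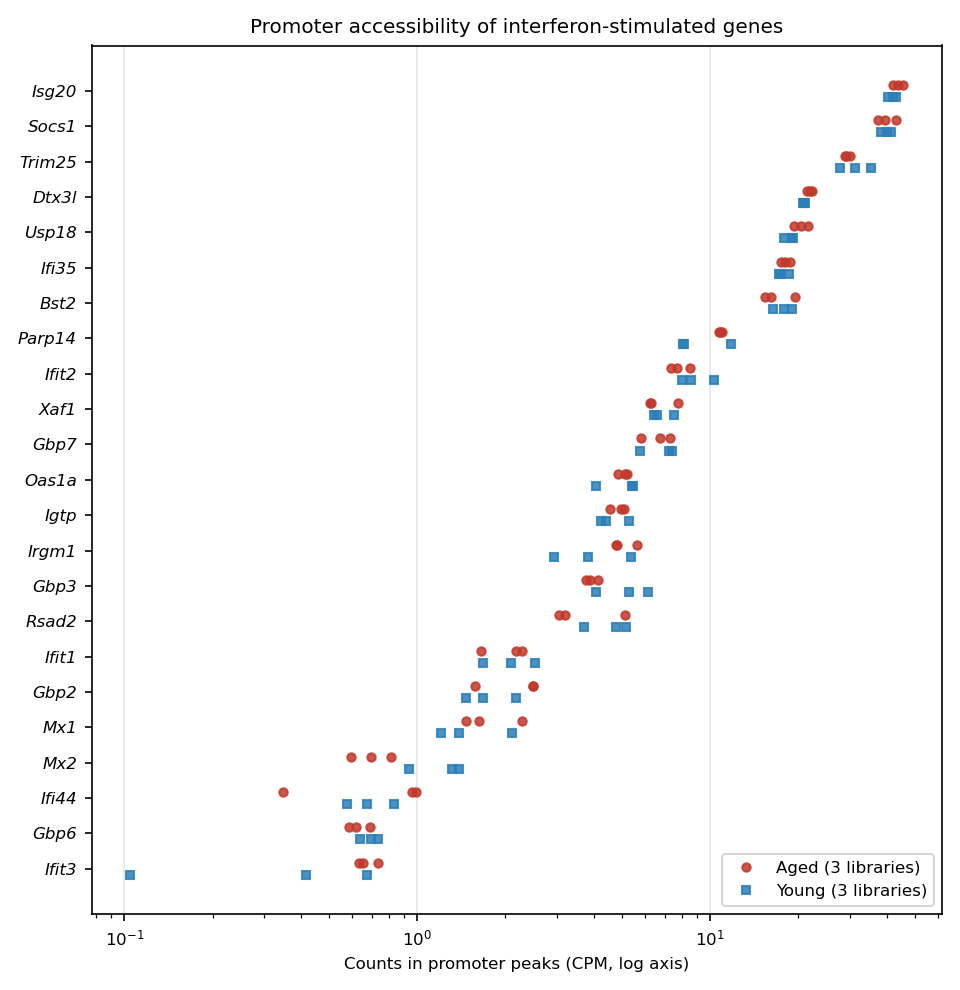
Summed promoter level (CPM, log axis) of the 23 genes with a promoter peak, in each aged library (circles, upper row of each gene) and each young library (squares, lower row). Levels run from Isg20 at the top to Ifit3 at the bottom, and the groups are apart only for Usp18, Dtx3l and Mx2.

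How open the promoters were varied widely between members. Per kb of peak, the member promoters had a median level of 11.3 CPM over all 6 libraries, against 16.9 CPM per kb over the 15255 genes with a promoter peak, and 8 members lay above that value and 15 below it. This ranking covers only peaks within 1 kb of the annotated start. It leaves out a promoter-class peak of Gbp5, 8.97 kb before that start, which had 54.9 CPM per kb over all libraries. Among the promoter sums, the most open were Isg20, an RNA exonuclease, with a level of 41.9 CPM per kb in aged and 40.1 CPM per kb in young organoids, and Ifi35, with 39.6 and 38.7 CPM per kb in aged and young organoids. Trim25, a ubiquitin ligase of the RNA-sensing pathway, had 37.0 CPM per kb in aged and 39.7 CPM per kb in young organoids. Then came Usp18, with 36.6 CPM per kb in aged and 33.6 CPM per kb in young organoids, and Bst2 (tetherin, which holds budding virions at the cell surface), with 26.3 and 27.4 CPM per kb in aged and young organoids. The least open were Mx1, with 2.08 CPM per kb in aged and 1.82 CPM per kb in young organoids, and Gbp6, with 2.05 and 2.24 CPM per kb in aged and young organoids. Ifi44, Gbp2 and Mx2 followed at 3.66 to 4.09 CPM per kb over all libraries. The Mx2 value is that of a weak intronic peak, with 0.701 CPM in aged and 1.21 CPM in young organoids. Its promoter-class peak 23.2 kb upstream, which the ranking leaves out, had 18.2 CPM in aged and 18.5 CPM in young organoids. Over the 6 libraries Isg20 ranged from 38.8 to 43.7 CPM per kb, Ifi35 from 37.5 to 40.9, Trim25 from 35.0 to 44.7 and Usp18 from 32.1 to 38.6, so that neighbours among these did not differ beyond their spread. Bst2, at 23.8 to 30.1 CPM per kb, lay below all of them. At the lower end Mx1 (1.40 to 2.65 CPM per kb), Gbp6 (1.91 to 2.39) and Ifi44 (1.73 to 4.96) overlapped in the same way.

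Members whose window held an ISRE core had the lower median level of the promoter sums, which need not come from the peak over the window. Among members with a window and a promoter peak, the 11 with an ISRE core had a median level of 8.12 CPM per kb and the 7 without one 12.9 CPM per kb. Their log2 fold changes of aged over young ran from -0.36 to 0.65 with an ISRE core and from -0.16 to 0.17 without one. The Gbp3 sum, which is itself the median of 8.12, is mainly a peak outside the window. The Gbp3 peak over the window with the ISRE core had 5.19 CPM per kb. For Rsad2 the peak over the window lies 1.62 kb before the annotated start and is left out as distal. These are descriptions over genes and were not tested.

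The OAS proteins make the second messenger that activates RNase L, and Isg20 degrades viral RNA. The promoter of Oas1a had 4.83, 5.14 and 5.20 CPM in aged libraries and 5.43, 5.41 and 4.08 CPM in young libraries. That of Isg20 had 45.7, 43.9 and 42.1 CPM in aged libraries and 43.2, 42.1 and 40.6 CPM in young libraries. Both genes overlapped between the groups, with log2 fold changes of 0.04 ± 0.17 and 0.07 ± 0.07 (SE, n = 3 against 3). Oasl1, an OAS-like protein without the enzyme's activity that in mice represses translation of Irf7, had 1 distal peak by name, in its first intron 3.6 kb from the start. This peak had 24.0, 22.0 and 23.5 CPM in aged libraries and 19.5, 17.04 and 21.9 CPM in young libraries. Every aged library lay above every young one, though aged replicate 2 and young replicate 3 were nearly level. The log2 fold change of the distal sum was 0.26 ± 0.10 (SE), with an adjusted p of 0.324 in edgeR's test. The peak over the RefSeq promoter of Oasl1 carries another gene's name and had a log2 fold change of 0.10, and that over the promoter of Oas3 one of 0.34, neither called.

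The IFIT proteins bind viral RNA and block its translation. Ifit3 had the highest fold change of all member promoters, on few counts: its promoter peak of 87 bp held 14, 16 and 17 counts in the aged libraries and 3, 18 and 2 counts in the young libraries. In CPM these were 0.632, 0.734 and 0.655 in aged and 0.418, 0.676 and 0.105 in young libraries. The aged libraries agreed closely, whereas the young ones spread widely and young replicate 2 lay among the aged values. This gave a log2 fold change of 0.65 ± 0.46 (SE), with an adjusted p of 0.652 in edgeR's test. It came to 0.14 without young replicate 3 and to 1.76 without young replicate 2, so it rests on single young libraries. Ifit1 had 2.17, 1.65 and 2.27 CPM at its promoter in aged libraries and 2.09, 2.52 and 1.68 CPM in young libraries, fully overlapping, with a log2 fold change of -0.06. Ifit2 had 7.72, 8.53 and 7.32 CPM in aged libraries and 10.3, 8.63 and 8.01 CPM in young libraries. Each aged library of Ifit2 lay below the same-numbered young one, but the groups overlapped and the log2 fold change was -0.16 ± 0.14 (SE).

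No distal sum of the IFIT genes was called. The 3 distal peaks of Ifit3 summed to 4.33, 3.85 and 5.28 CPM in aged libraries and 6.13, 4.77 and 7.12 CPM in young libraries. Aged replicate 3 lay above young replicate 2, and the log2 fold change was -0.39 ± 0.17 (SE) with an adjusted p of 0.395 in edgeR's test. One of these 3 peaks, 9.7 kb before the start of Ifit3, lies at the transcription termination site of Ifit2 by the annotation, so the neighbours share it. The log2 fold changes of the distal sums of Ifit1 and Ifit2 were -0.07 and -0.01.

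Restriction factors that act on capsids and membranes gave the lowest promoter value. Mx1 and Mx2 encode dynamin-like GTPases that trap viral nucleoproteins, and most inbred laboratory strains, C57BL/6 among them, carry a defective Mx1 allele. The Mx2 promoter peak, in an intron 0.777 kb after an annotated start, had 0.812, 0.596 and 0.694 CPM in aged libraries and 1.39, 0.938 and 1.31 CPM in young libraries. Every aged library lay below every young one, on 10 to 25 counts per library. Their log2 fold change was -0.72 ± 0.34 (SE), with an adjusted p of 0.394 in edgeR's test. The main promoter-class peak of Mx2, 23.2 kb upstream of that start, was far stronger and level between the groups, with 18.2 ± 0.797 CPM in aged and 18.5 ± 1.54 CPM in young organoids (SD, n = 3 each) and a log2 fold change of -0.02.

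The Mx1 promoter had 1.62, 1.47 and 2.27 CPM in aged libraries and 1.39, 2.10 and 1.20 CPM in young libraries. The groups overlapped, and the log2 fold change of 0.14 ± 0.28 (SE) turned to -0.078 without aged replicate 3 and to -0.072 without young replicate 3. The 12 distal peaks of Mx1 summed to 23.8, 22.6 and 24.3 CPM in aged libraries and 21.7, 20.3 and 21.7 CPM in young libraries. Here all aged libraries were above all young ones, by a narrow margin, with a log2 fold change of 0.16 ± 0.09 (SE) and an adjusted p of 0.584 in edgeR's test. Rsad2 (viperin), which makes a chain-terminating nucleotide, had 3.20, 5.14 and 3.04 CPM at its promoter in aged libraries and 5.15, 4.77 and 3.72 CPM in young libraries. Aged replicate 2 lay within the young values, and the log2 fold change was -0.24 ± 0.21 (SE). The 2 distal peaks of Rsad2 summed to 16.1, 18.4 and 16.8 CPM in aged libraries and 22.7, 19.9 and 16.8 CPM in young libraries, with young replicate 3 level with the aged ones and a log2 fold change of -0.19. That sum is mainly the peak 1.62 kb before the annotated start, which overlaps the RefSeq promoter, and beyond 2 kb the log2 fold change turned to 0.27. The Bst2 promoter had 19.4, 15.4 and 16.2 CPM in aged libraries and 16.4, 19.0 and 17.8 CPM in young libraries, overlapping, with a log2 fold change of -0.08. Ifitm3 had only distal peaks, 4 of them, with a log2 fold change of 0.05 for their sum.

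Usp18, the protease that removes ISG15 from proteins and damps signalling at the type I interferon receptor, held the one peak of the whole list that was called in the unpaired test, and it rose in aged organoids. In the test over single peaks 1 of the 130 members' peaks that passed the filter on low counts was called (0.769%), against 1.13% of all 132055 peaks tested, and it was higher in aged, against 0.619% of all peaks. DESeq2 also called 1. With the replicate block 3 member peaks were called, all higher in aged, against 1.46% of all peaks called higher in that fit: this one, one of Socs1 and one of Ifi27. The called peak lies in intron 4 of 10 of Usp18, at chr6:121255765-121256222 on GRCm38, 10.1 kb after the start site. It had 5.87, 6.88 and 6.47 CPM in aged libraries and 2.65, 3.23 and 3.19 CPM in young libraries. All 3 aged libraries lay far above all 3 young ones, and the lowest aged value exceeded the highest young value by more than the range within either group. The log2 fold change was 1.04 ± 0.17 (SE), with a 95% interval of 0.69 to 1.39 and an adjusted p of 0.000334 in edgeR's test with Benjamini-Hochberg adjustment over all peaks.

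The call held in 11 of 12 alternative analyses, with log2 fold changes of 0.90 to 1.11 over all 12. It was lost when every library was thinned to the depth of the shallowest (0.90, adjusted p = 0.0589 in edgeR's test). Without young replicate 1, the shallowest library, the log2 fold change was 0.99 with an adjusted p of 0.00254 in edgeR's test.

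**Figure D3:**
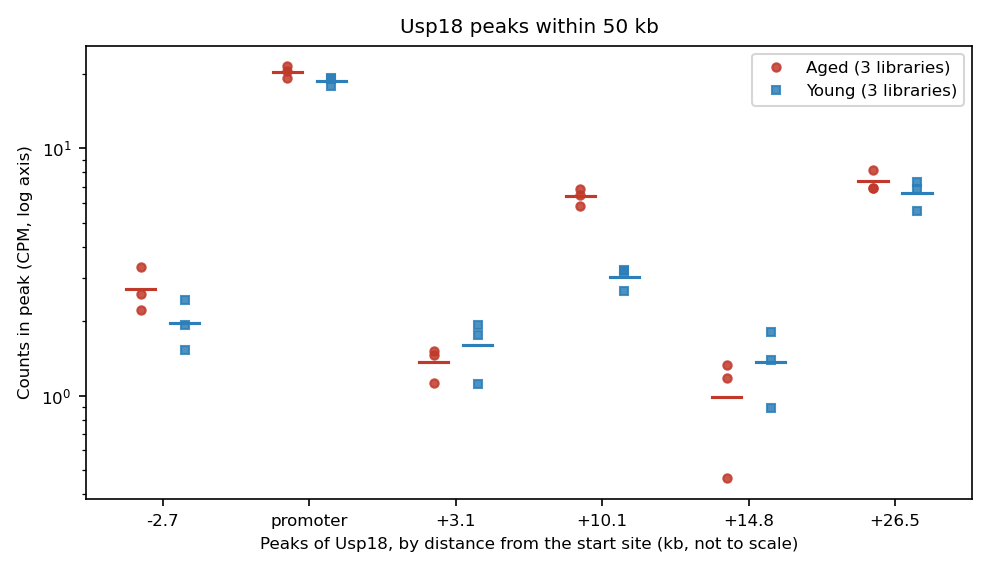
Level (CPM, log axis) of the 6 Usp18 peaks within 50 kb, ordered by distance from the start site and not drawn to scale. Points are libraries, aged left (circles) and young right (squares), and horizontal lines are group means. The peak at +10.1 kb has all aged libraries above all young ones and by far the widest gap.

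The other Usp18 peaks moved less and not all one way. Its promoter peak had 19.3, 21.5 and 20.5 CPM in aged libraries and 19.2, 19.0 and 17.9 CPM in young libraries, so that the groups just missed each other, with a log2 fold change of the promoter sum of 0.13 ± 0.09 (SE) and an adjusted p of 0.661 in edgeR's test. The remaining peaks had log2 fold changes of 0.37 at 2.7 kb before the start, -0.32 at 3.1 kb after it, -0.40 at 14.8 kb in the same intron as the called peak, and 0.16 at 26.5 kb, and for each of them the groups overlapped. The 5 distal peaks of Usp18 together had 18.6, 19.9 and 17.9 CPM in aged libraries and 13.9, 16.1 and 13.6 CPM in young libraries. The aged libraries were all higher, with a log2 fold change of 0.36 ± 0.11 (SE) that missed the threshold (adjusted p = 0.115 in edgeR's test). With the replicate number as a block, that is, in the paired fit, it was called (0.37, adjusted p = 0.0171 in edgeR's test). In that fit 1.81% of all distal sums were called higher. The distal sum of Usp18 was likewise called without young replicate 2 (0.46, adjusted p = 0.0367 in edgeR's test). There 582 of all distal sums were called, against 349 with all libraries.

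Isg15 itself had a single peak by name, 3.08 kb downstream of its start, at a site the annotation classes as the promoter of another gene. It had 33.3 CPM in each of the 3 aged libraries and 26.3, 33.3 and 26.2 CPM in young libraries. Young replicate 2 was level with the aged libraries and the other young ones were lower. The log2 fold change was 0.20 ± 0.10 (SE) with an adjusted p of 0.495 in edgeR's test, and without young replicate 2 it was 0.34 with an adjusted p of 0.0483. Parp14, a mono-ADP-ribosyltransferase, had 10.8, 11.01 and 10.7 CPM at its promoter in aged libraries and 8.08, 11.8 and 8.17 CPM in young libraries. Again young replicate 2 was the highest young library, here above all aged ones, and the log2 fold change was 0.17 ± 0.14 (SE), or 0.04 to 0.42 with 1 library left out. The shared promoter peak of Dtx3l and Parp9 had 21.9, 21.4 and 22.2 CPM in aged libraries and 20.8, 21.0 and 21.1 CPM in young libraries. The groups were apart by a narrow margin, and the log2 fold change of 0.06 ± 0.09 (SE) was small. The Trim25 promoter had 28.8, 30.0 and 29.1 CPM in aged libraries and 35.4, 31.3 and 27.7 CPM in young libraries, overlapping, with a log2 fold change of -0.08 ± 0.09 (SE).

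The interferon-induced GTPases, which gather on pathogen-containing vacuoles, were split between directions with none called at promoters. The promoter of Gbp2 had 2.48, 2.48 and 1.58 CPM in aged libraries and 1.67, 2.18 and 1.47 CPM in young libraries. Aged replicate 3 lay among the young values, and the log2 fold change was 0.25 ± 0.26 (SE), or 0.09 to 0.49 with 1 library left out. Irgm1, a regulator of the other immunity-related GTPases, had 5.64, 4.81 and 4.78 CPM at its promoter in aged libraries and 2.93, 5.37 and 3.82 CPM in young libraries, with young replicate 2 inside the aged values and a log2 fold change of 0.24 ± 0.19 (SE). For Irgm1 it was 0.13 to 0.52 with 1 library left out, the highest without young replicate 2, and 0.04 with a promoter limit of 2 kb. Igtp had 4.96, 4.54 and 5.09 CPM in aged libraries and 5.29, 4.39 and 4.24 CPM in young libraries, overlapping, with a log2 fold change of 0.11.

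Gbp3 had the lowest promoter value of the family, with 3.88, 4.13 and 3.78 CPM in aged libraries and 6.13, 5.29 and 4.08 CPM in young libraries. Each aged library was below its same-numbered young one, and only young replicate 3 reached the aged range. For Gbp3 the log2 fold change was -0.36 ± 0.18 (SE), with an adjusted p of 0.467 in edgeR's test. Of its 2 promoter peaks, the one 0.692 kb after the start was lower in every aged library than in any young one (log2 fold change -0.40, not called). There aged replicate 2 and young replicate 3 were nearly level, at 3.49 and 3.51 CPM. The promoter peak over the RefSeq promoter with the ISRE pair was level (0.519 CPM in each group). The distal peaks of Gbp3, on 0.451, 0.871 and 0.539 CPM in aged libraries and 0.975, 0.751 and 1.05 CPM in young libraries, overlapped and had a log2 fold change of -0.54 ± 0.36 (SE). The Gbp6 promoter had 0.587, 0.688 and 0.616 CPM in aged libraries and 0.697, 0.638 and 0.733 CPM in young libraries, overlapping, with a log2 fold change of -0.12 ± 0.37 (SE). Gbp7 had a log2 fold change of -0.04 at its promoter. The distal peak of Gbp2 had 1.67, 0.871 and 1.002 CPM in aged libraries and 1.25, 1.05 and 0.838 CPM in young libraries, where aged replicate 1 alone stood above the young ones. Its log2 fold change of 0.22 turned to -0.095 without aged replicate 1. Gbp5 and Iigp1 had distal peaks only, with log2 fold changes of -0.08 and -0.12 for their sums.

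Socs1, which inhibits the JAK kinases and so ends the interferon signal, had a long promoter peak of 1724 bp, with 37.5, 39.7 and 43.0 CPM in aged libraries and 41.5, 40.1 and 38.4 CPM in young libraries. Per kb the level was 23.2 CPM in both aged and young organoids. The groups overlapped fully, with a log2 fold change of 0.01 ± 0.07 (SE). An intergenic peak 30.7 kb downstream of Socs1, at chr16:10754540-10755118, had 7.31, 10.0 and 7.63 CPM in aged libraries and 6.13, 4.99 and 6.07 CPM in young libraries. All aged libraries were above all young ones, aged replicate 2 by the widest margin. It had a log2 fold change of 0.56 ± 0.16 (SE), which missed the threshold (adjusted p = 0.0891 in edgeR's test). With the replicate block it was 0.58 and was called (adjusted p = 0.00563 in edgeR's test). Without aged replicate 2 it was 0.41, with an adjusted p of 0.447. The 12 distal peaks of Socs1 together had a log2 fold change of 0.12.

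Ifi27, a small interferon-induced membrane protein, had 1 peak, at chr12:103434086-103434317, 3.4 kb before the annotated start in a promoter of the same gene. It had 5.41, 6.01 and 4.85 CPM in aged libraries and 3.34, 4.43 and 3.19 CPM in young libraries. Every aged library was above every young one, with young replicate 2 the closest. As a single peak its log2 fold change was 0.53 ± 0.18 (SE) with an adjusted p of 0.210 in edgeR's test, and with the replicate block it was 0.55 with an adjusted p of 0.0372. As the distal sum of the gene it had an adjusted p of 0.171, of 0.0345 with the replicate block and of 0.0466 without young replicate 2 (edgeR's test). Ifi44 had 0.993, 0.963 and 0.347 CPM at its promoter in aged libraries and 0.836, 0.676 and 0.576 CPM in young libraries. The third aged library was the lowest of all 6, and the log2 fold change of 0.17 ± 0.41 (SE) turned to -0.058 without aged replicate 1 and to -0.026 without aged replicate 2. The distal peaks of Ifi44 had 1.49, 1.01 and 1.19 CPM in aged libraries and 1.25, 1.84 and 1.36 CPM in young libraries, overlapping, with a log2 fold change of -0.34 ± 0.27 (SE). Ifi35, which partners the protein Nmi, and Xaf1, a binding partner of the apoptosis inhibitor XIAP, had log2 fold changes of 0.03 and -0.04 at their promoters.

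Taken over all distal peaks of a gene, 0 of the 26 members tested were called, against 1.33% of the 26320 genes tested (0.646% for higher genes alone), and Gbp6 did not pass the filter. At an unadjusted p under 0.05 there were 5 members, against 11% of all genes, and DESeq2 called 0. The median log2 fold change of the members was 0.01, against -0.01 over all genes, with 14 above 0 and 12 below it. The groups did not overlap for 4 members (15.4%), against 15.6% of all genes. In these 4 (Ifi27, Usp18, Oasl1 and Mx1) the aged libraries were the higher ones, but the share of all genes with that direction is not reported here.

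**Figure D4:**
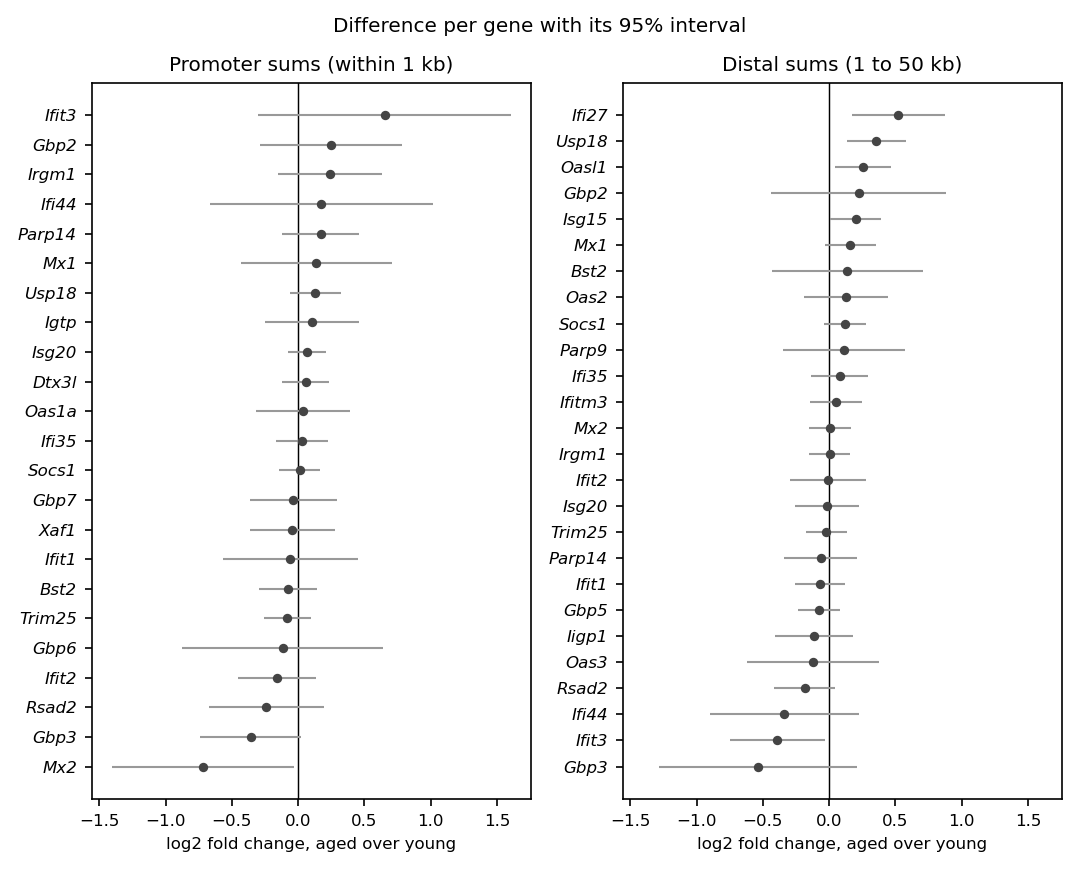
Log2 fold change, aged over young, of the promoter sum (left, 23 genes) and the distal sum (right, 26 genes) of each member, with the 95% interval of edgeR's fit as a horizontal bar. Most points lie close to 0, from Ifit3 (0.65) to Mx2 (-0.72) at promoters and from Ifi27 (0.52) to Gbp3 (-0.54) at distal peaks, and no gene was called in either panel.

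Over single peaks, log2 fold changes of the 130 tested member peaks had a median of -0.01, against -0.01 over all peaks, with 63 above 0 and 67 below it and a range of -0.93 to 1.04. Their median absolute value was 0.15, against 0.17 over all peaks. An unadjusted p under 0.05 was reached by 11 member peaks (8.46%), against 9.71% of all peaks, and the groups did not overlap at 13 member peaks (10.0%), against 14.7% of all peaks. Of these 13 peaks, 8 had aged above young and 5 had aged below young, and the shares of all peaks by direction are not reported here. The lowest value belonged to a peak 14.5 kb from the annotated start of Mx2, in an intron of another gene, with 0.226, 0.688 and 0.308 CPM in aged libraries and 0.697, 1.05 and 0.471 CPM in young libraries, overlapping and not called (log2 fold change -0.93 ± 0.45 SE). The 19 peaks left out by the filter were all distal and had a mean of 3.67 to 9.50 counts per library. Of these 19, 4 had all aged libraries above all young ones, near Bst2, Ifitm3, Socs1 and Isg20, and 1 had them below, near Gbp3. No such share was computed over all peaks that the filter left out, so these low-count peaks have no background to be read against.

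**Figure D5:**
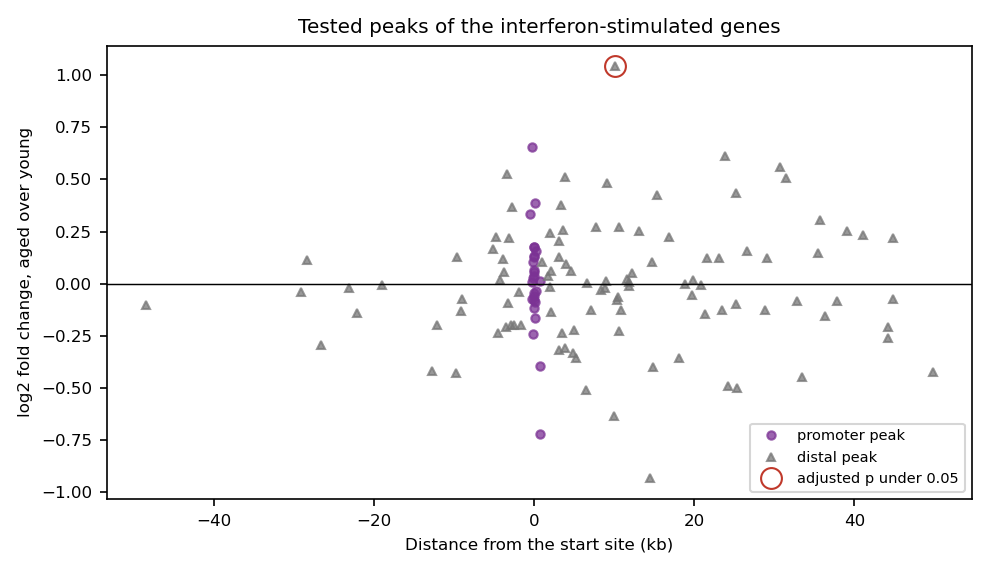
Log2 fold change, aged over young, of each of the 130 tested member peaks against its distance in kb from the annotated start site, with promoter peaks as circles and distal peaks as triangles. The ringed triangle at 10.1 kb is the intronic Usp18 peak (1.04), the only one called in the unpaired test, and the others scatter on both sides of 0.

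Peaks inside or at the RefSeq start of a member can carry a neighbour's name. There were 17 such peaks, of which 13 passed the filter, with log2 fold changes of -0.66 to 0.43. Of these 13, 0 were called by edgeR's test (1.13% of all peaks tested) or by DESeq2. An unadjusted p under 0.05 in edgeR's test was reached by 4 of the 13, against 9.71% of all peaks tested. All 4 were lower in aged, with log2 fold changes of -0.44 in Gbp2, -0.43 at the end of Ifit2, and -0.34 and -0.66 in Parp9. The peak at the end of Ifit2 is named for Ifit3 and was already counted among the member peaks. Of the 17, 3 are named for another member. A peak at the end of Parp9, which carries the name of a gene that is no member, had 13.1, 11.8 and 13.6 CPM in aged libraries and 15.5, 15.6 and 17.6 CPM in young libraries. The aged libraries were all lower, with a log2 fold change of -0.34 ± 0.12 (SE) and an adjusted p of 0.227 in edgeR's test.

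The rest of the interferon pathway was looked at through a list of 55 genes that are not members: receptors and kinases, transcription factors, nucleic acid sensors and further targets. A promoter peak was tested for 39 of them: 7 receptors and kinases, 5 transcription factors, 6 sensors and 21 further targets. The test called 1 higher and 0 lower in aged (0.627% of all genes tested were higher), 9 had an unadjusted p under 0.05 (11.8% of all genes), and DESeq2 called 1. Their median log2 fold change was 0.09, against 0.03 over all genes, with 29 above 0 and 10 below it (58.1% of all genes were above 0). The groups did not overlap for 8 (16.3% of all genes). Of these 8, 7 had aged above young, but the share of all genes with that direction is not reported here. The called gene was Jak2, the kinase that passes on the interferon gamma signal, with 49.4, 52.6 and 51.0 CPM in aged libraries and 38.4, 44.7 and 38.6 CPM in young libraries. All aged libraries were above all young ones, with a log2 fold change of 0.32 ± 0.07 (SE) and an adjusted p of 0.0199 in edgeR's test. The adjusted p of Jak2 in edgeR's test lay above 0.05 without aged replicate 2 (0.0739), aged replicate 3 (0.0912), young replicate 1 (0.0716) or young replicate 3 (0.118), with log2 fold changes of 0.27 to 0.32 in these 4 fits. Over all alternatives its adjusted p in edgeR's test or DESeq2 ranged from 0.00180 to 0.118.

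With the replicate block 4 of the 39 genes were called, all higher in aged, against 2.08% of all promoter sums called higher in that fit. These were Jak2, Irf7 (0.28, adjusted p = 0.0469), a transcription factor that amplifies the response, Dhx58 (0.38, adjusted p = 0.0381), an RNA sensor, and Herc6 (0.61, adjusted p = 0.0207), the ligase that attaches ISG15 in mice, all by edgeR's test. The largest log2 fold changes without the block were those of Irf9 (0.72 ± 0.30), Sp100 (0.63 ± 0.25) and Herc6 (0.60 ± 0.18, all SE). The Irf9 promoter was weak, with means of 1.82 CPM in aged and 1.25 CPM in young organoids, and its groups overlapped. For Sp100 (2.40 and 1.61 CPM in aged and young organoids) and Herc6 (6.25 and 4.22 CPM) all aged libraries lay above all young ones. The lowest log2 fold changes were those of Tmem173 (-0.16), Ifit3b (-0.12) and Irgm2 (-0.10). None of these genes was called without the block. The promoter of Stat2, a transcription factor of the type I response, had a log2 fold change of 0.03. Of 9 housekeeping promoters tested for comparison 0 were called by edgeR's test or by DESeq2, 1 had an unadjusted p under 0.05, and the median log2 fold change was 0.04.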

How the data were processed

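The deposited files are a table of raw counts per consensus peak in 6 ATAC-seq libraries (3 aged, 3 young) and an annotation giving each peak a class, the nearest start site and the distance to it. Per the file headers the counts are not normalised. The submitters' processing notes list, without roles, featureCounts 2.0.1, MACS2 2.2.7.1, BWA 0.7.17-r1188, Picard 2.23.1 and Trim Galore 0.6.4, with the build GRCm38. The Tn5 shift, duplicate handling and unit counted (reads or fragments) are not given in the sources used here.

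Counts were tested with the two-sided quasi-likelihood F test of edgeR 4.0.16 under R 4.3.3, using robust dispersions, TMM factors and filterByExpr (minimum count 10), over all peaks and over per-gene sums of promoter and of distal peaks, with Benjamini-Hochberg adjustment over each whole table. Sums used the library sizes and factors of the peak table. An SE is the log2 fold change divided by the root of F. The code was tested on simulated data. Members and lists were chosen with earlier results of these data known. Values in every library were given for called peaks, single peaks with an unadjusted p under 0.01, and the highest and lowest promoter (6 each) and distal (4 each) fold changes. For the other pathway genes they were given for the called gene, and the highest and lowest fold changes (3 each) were named without them. Further genes were named after their values were seen.

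The main test was unpaired. Libraries of the same number share a passage in the titles and descriptions and a culture code in the titles, but the descriptions of replicates 2 and 3 give another code, so the pairing is in doubt. Their deviations from the group means correlated at r = 0.058, 0.129 and 0.145 for numbers 1, 2 and 3. The highest correlation of the same aged library with a differently numbered young one was -1.37e-05, 0.0181 and -0.0675. The replicate block was an alternative, as were RLE factors, total counts, no filter, DESeq2 1.42.0, thinning, other distance limits and leaving out each library. The reads carry no molecular identifiers, so counts give counting precision only. RefSeq windows of GRCm38.p6 were searched for motifs by symbol.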

Additional observations from a re-analysis of the deposited data

How the results depend on the processing

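Among the members' peaks 1 was called, and 9 of 13 alternatives kept that count: 3 were called with the replicate block (Usp18, Socs1 and Ifi27), 0 after thinning to the shallowest library, 0 among the peaks within 10 kb, which leave out the Usp18 peak by construction, and 1 to 2 when 1 library was left out. Of all peaks tested, 2.67% were called with the block and 1.40% without young replicate 2. Promoter sums gave 0 called members under all 14 alternatives. Distal sums gave 0, but 2 with the paired fit (replicate block) and 0 to 3 when 1 library was left out. The 3 (Isg15, Usp18 and Ifi27) were called without young replicate 2. Calls over all distal sums rose in the same fits, from 349 to 953 with the block and to 582 without young replicate 2. The cause was not tested. Other pathway promoters gave 1 called gene, 0 on total counts, 0 after thinning, 4 with the replicate block and 0 to 2 when 1 library was left out. The 2 were called without young replicate 2. Of all promoter sums tested, 3.70% were called with the block and 4.82% without young replicate 2.

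Leaving out 1 library at a time gave -0.058 to 0.55 for the Ifi44 promoter sum (-0.026 without aged replicate 2), -0.078 to 0.51 for that of Mx1 (-0.072 without young replicate 3), -0.095 to 0.39 for the Gbp2 distal sum and -0.34 to 0.10 for the Ifit3b promoter sum, which also turned to 0.035 after thinning. The Rsad2 distal sum turned to 0.27 beyond 2 kb. Of 386 single values under the alternatives, 364 kept direction and side of the threshold. Only the Usp18 peak and the Jak2 promoter were called in the main fit. Most of the others lay far above the threshold, so that keeping their side of it says little. The call held in 11 of 12 alternatives for the Usp18 peak and in 6 of 12 for Jak2. Over all peaks the calls numbered 1491, against 3522 with the block, 911 by DESeq2, 611 after thinning and 830 without aged replicate 3. Over all promoter sums they numbered 243, against 531 with the block, 126 after thinning, 134 without aged replicate 3, 162 without aged replicate 1 and 697 without young replicate 2. Over all distal sums they numbered 349, against 953 with the block, 202 after thinning, 198 without aged replicate 3, 228 without young replicate 1 and 582 without young replicate 2. Young replicate 1 was the shallowest library, and counts were low at the promoters of Ifit3, Ifi44, Gbp6 and Mx2. How far this limited what could be detected was not tested.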
